A study of Mus musculus with 45 samples.

Results

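The genes described here are 10 transcription factors and cofactors that adjust the fat metabolism of a cell to what it is fed: the fatty acid receptors Ppara, Ppard and Pparg, their partner receptor Rxra, the oxysterol receptor Nr1h3 (LXR alpha), the xenobiotic and bile acid receptor Nr1i2 (PXR), the gut and liver factors Hnf4a and Hnf4g, and the coactivators Ppargc1a and Ppargc1b (PGC-1 alpha and beta). They were chosen by name and are 10 of the 47729 genes in the deposited tables. All 10 passed the filter on low counts (6 or more of the 45 libraries with over 5 reads) and are among the 14020 genes tested. A log2 change is the log2 ratio of HFD over RFD in reads scaled to library size.

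Each library was made from tuft cells of the small intestine of 1 mouse, sorted as EpCAM+ Siglec-F+ cells, amplified by Smart-seq2 and sequenced in bulk. For CD45 the study's methods give both a CD45+ gate and the exclusion of cells with CD45, so that gate is not clear. The mice were male C57BL/6J animals kept at thermoneutrality, and within a set the labels separate the groups by diet alone: RFD is the reference diet with 10% fat and HFD the diet with 60% fat. The STF set holds 11 libraries on RFD and 11 on HFD, and the LTF set 11 on RFD and 12 on HFD. The study's methods give feeding for 9 and 22 weeks, which were taken as STF and LTF, while the labels give 9 weeks for all 45 libraries, so a difference between the sets may be one of time or of libraries. The age of the mice at death was not given in the labels. Per the study's methods all mice arrived at the same age, so age goes with feeding time. The question put to each gene was whether its level differed between the diets within a set.

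PPAR receptors bind fatty acids and, paired with an RXR receptor, switch on genes of fatty acid uptake, oxidation and storage. Nr1h3 and Nr1i2 also pair with RXR, while the HNF4 proteins bind DNA as pairs of their own kind and keep the enterocyte programme of fat absorption running. The PGC-1 coactivators bind no DNA site by themselves but dock on such receptors and raise the output of mitochondrial genes.

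These receptors read DNA through a short hexamer, AGGTCA, which reads as TGACCT on the other strand, and PPAR with RXR, or an HNF4 pair, read a repeat of it with 1 base between the copies. The 250 bases before the RefSeq starts of GRCm38.p6 were searched on both strands for the hexamer and for a loosened spaced pair, GGNCANAGGNCA, which can share letters with a hexamer. The promoter table held 8 of the 10 genes, Hnf4g and Ppargc1b being absent. Hexamers lay in 14.0% of all 32851 promoters and in 3 of 13 promoters of the 8 genes, which belong to Pparg and Rxra. The spaced pair lay in 0.694% of all promoters and, among the 8 genes, in 1 promoter of Rxra, shown whole because it was the only one, on the plus strand at chr2:27709042-27709291, with the pair in capitals.
Rxra: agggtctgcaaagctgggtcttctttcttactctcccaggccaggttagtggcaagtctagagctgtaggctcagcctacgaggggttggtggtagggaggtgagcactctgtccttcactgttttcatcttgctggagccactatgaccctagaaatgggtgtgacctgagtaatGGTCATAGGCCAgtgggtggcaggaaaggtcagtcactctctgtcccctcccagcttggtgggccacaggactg

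Among genes known as targets, Fabp1 and Apoc2 held the spaced pair, of 12 genes of an HNF4 list of 14 with an entry, and none of the 23 promoters found for 21 genes of a PPAR list of 30 did. The hexamer lay in 5 of the 13 promoters of those HNF4 targets (38.5%) and in 5 of the 23 of the PPAR targets (21.7%, 5 of 21 genes). Windows of 30 bases around these pairs, and around the hexamers of Pparg itself and of 3 PPAR targets, Acadvl, Cd36 and Plin2, are set side by side, since values of their transcripts are given below. These targets were picked for display after their values were seen. Acadm and Cpt1a, the other PPAR targets with the hexamer, are not shown and were called in neither set. Capitals mark the pair in Fabp1 and Apoc2 and the hexamer in the rest.
Fabp1, chr6:71199803-71199832, plus strand: gacaatcacTGACCTATGGCCtatatctga
Apoc2, chr7:19678042-19678071, minus strand: ttctcttgaGGCCAGAGGTCAaccttccgt
Pparg, chr6:115361104-115361133, plus strand: agccgccgcctcAGGTCAgagtcgccccgg
Acadvl, chr11:70015498-70015527, minus strand: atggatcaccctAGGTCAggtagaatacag
Cd36, chr5:17836107-17836136, minus strand: ctctgcactttaTGACCTgagattttcagg
Plin2, chr4:86670260-86670289, minus strand: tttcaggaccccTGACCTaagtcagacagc
A match of letters is a description of the sequence only, and binding was not measured.

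Total counts ran from 189340 to 4690213 per library. The defining tuft markers, such as Dclk1, Trpm5 and Pou2f3, were present, but their level varied: the summed CPM (reads scaled by the TMM method to a library of fixed size) of 18 tuft markers ran from 3837 to 28259 in STF on RFD, from 426 to 27405 in STF on HFD, from 5021 to 33672 in LTF on RFD and from 1489 to 30417 in LTF on HFD. Paneth cell markers (7 genes) had a median summed level of 2600 CPM in STF on RFD against 26106 CPM on HFD, and of 1697 against 11835 CPM in LTF. In 5 libraries they exceeded 100000 CPM, with 593343 CPM in STF HFD mouse 80, and LTF RFD mouse 3 had fewer than 10000 genes with a read. These 6 libraries are called the libraries that stand apart, and the log2 changes of the 10 genes are also given without them. In bulk libraries, fewer cells of a type and less RNA per cell cannot be told apart.

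Levels of different genes are compared per transcript length, as the deposited TPM. Hnf4a was the most abundant of the 10 genes in each group, with a median of 50.4 TPM in STF on RFD, 49.2 TPM in STF on HFD, 58 TPM in LTF on RFD and 60 TPM in LTF on HFD. In STF on RFD it was followed by Pparg at 25.2 TPM, Nr1h3 at 23.8 TPM and Hnf4g at 19.6 TPM, whose order changed from library to library: Pparg stood above Nr1h3 in 5 of 11 libraries and Nr1h3 above Hnf4g in 4 of 11. In LTF on HFD, Hnf4g was next after Hnf4a with 51.8 TPM and stood below it in 7 of 12 libraries, and Nr1h3 and Pparg followed with 35.8 and 22.2 TPM. Nr1i2 was of middle level, with medians of 13.4, 11.9, 12.2 and 12.3 TPM in the 4 groups in that order, and Ppargc1a was lower, with 5.68, 3.55, 6.54 and 4.33 TPM. Ppara, Ppard, Ppargc1b and Rxra had medians under 5 TPM in each group. Neighbours in the order overlapped in their ranges in each group. Hnf4a stood above the gene next in order in 10 of 11 libraries of STF on RFD, 8 of 11 of STF on HFD, 10 of 11 of LTF on RFD and 7 of 12 of LTF on HFD.

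**Figure D1:**
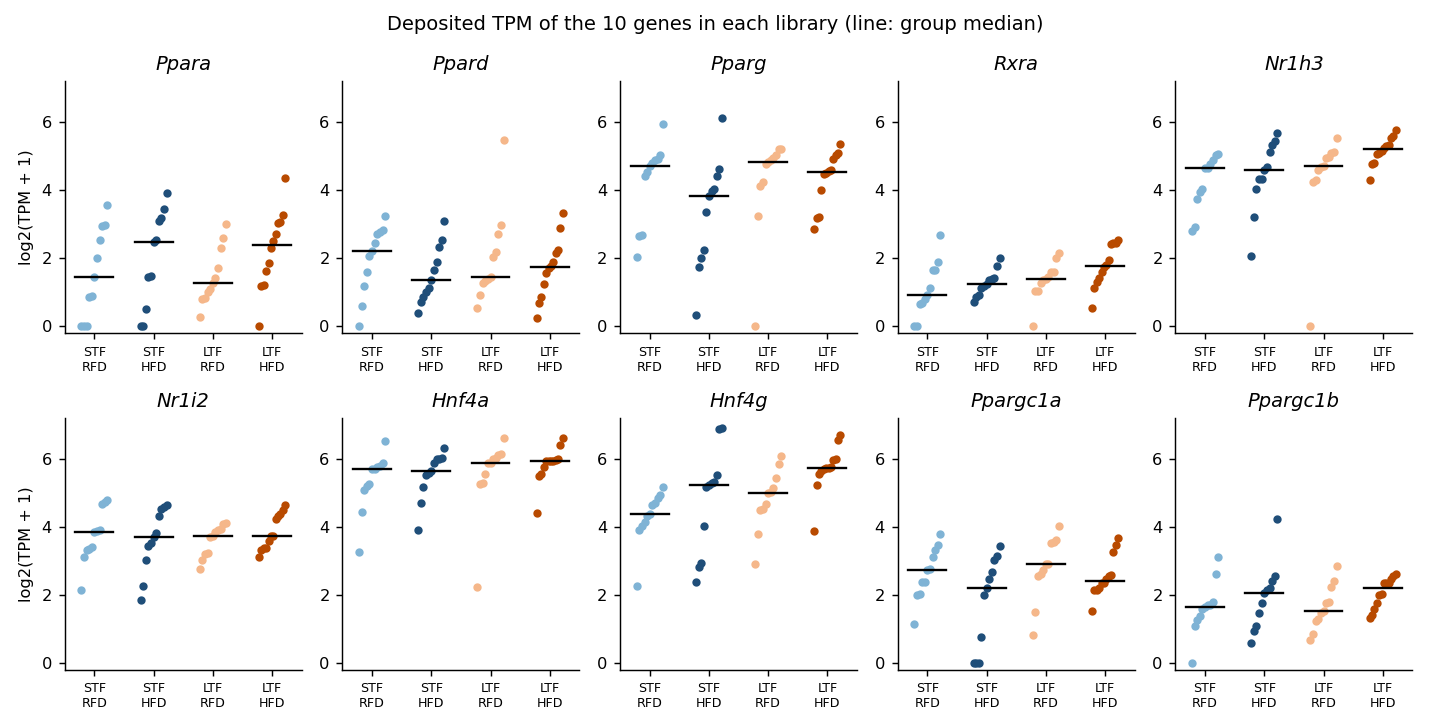
Deposited TPM of the 10 genes, as log2(TPM + 1) on the y axis, for each of the 4 groups on the x axis; each point is 1 library and the line is the group median. Hnf4a sits highest in each group, with medians of 49.2 to 60 TPM, Ppara, Ppard, Rxra and Ppargc1b have medians under 5 TPM in each group, and the points of RFD and HFD overlap in all panels.

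By edgeR's quasi-likelihood test (threshold: Benjamini-Hochberg adjusted p under 0.1), the diets differed for 0 of the 10 genes in STF, where 3.08% of the 14020 genes did, and 0 of 10 in LTF, where 0.728% did. An unadjusted p under 0.05 was reached by 3 of 10 genes in STF, against 18.2% of all genes, and by 3 of 10 in LTF, against 10.2%. DESeq2 called Pparg and Hnf4g in STF, where it called 18.5% of the genes to which it gave an adjusted p, and 0 of 10 in LTF, where it called 3.87%. It gave no adjusted p for Ppara and Ppard in either set and for Rxra in STF. A rank test built after SAM-seq called 0 of 10 in STF, where it called 13.5% of all genes, and Hnf4g and Nr1h3 in LTF, where it called 5.10%. limma on log2(TPM + 1) called 0 of 10 in each set, and 0.0642% and 0.364% of all genes. The median of the 10 log2 changes was 0.23 in STF and 0.23 in LTF, beside -0.05 and -0.03 over all genes tested.

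**Figure D2:**
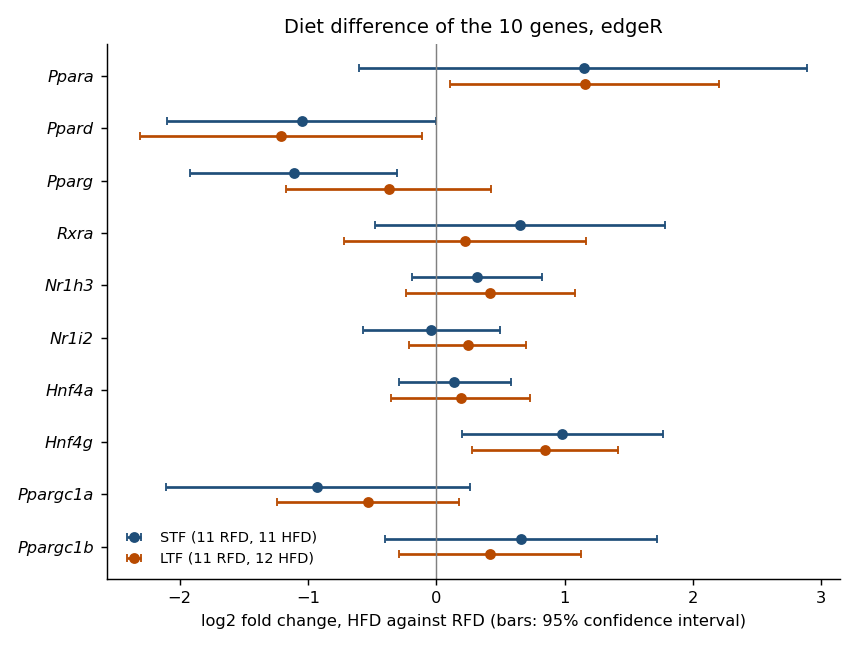
Log2 changes of HFD against RFD from edgeR (x axis) for the 10 genes (y axis), in STF (blue, 11 and 11 libraries) and LTF (orange, 11 and 12 libraries); bars are 95% confidence intervals. Hnf4g lies above 0 with its interval in both sets, at 0.98 and 0.85, and Ppard below, at -1.05 and -1.21. None of the 10 passed the threshold, and without LTF RFD mouse 3 the LTF value of Ppard was -0.24.

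Ppara, the receptor that switches on fatty acid oxidation, was at the edge of detection. In STF on RFD it had 0 to 15.2 CPM with a median of 2.33, and in STF on HFD 0 to 32.1 CPM with a median of 11.4. In LTF the RFD libraries ran from 0.787 to 14.7 CPM with a median of 3.59, and the HFD libraries from 0 to 18.1 CPM with a median of 6.62. The groups overlapped in both sets, although 10 of 12 HFD libraries of LTF lay above the RFD median and 8 of 11 of STF did. The log2 change was 1.15 in STF (SE 0.85, adjusted p = 0.493) and 1.16 in LTF (SE 0.51, adjusted p = 0.438). It rested on few reads, at most 68 in any library, with 5 or fewer in 7 of 11 RFD and 4 of 11 HFD libraries of STF. Without LTF RFD mouse 1, the LTF difference was 1.69 with an adjusted p of 0.0785, and with the difference of tuft and enterocyte marker levels as a covariate the STF value was 0.09. The mouse numbers of the labels fall into 3 series (units from 1 to 8, multiples of 10, and further numbers between 21 and 64), whose meaning the labels do not give. STF RFD mouse 84 and LTF HFD mouse 65 belong to none of the 3 and are left out of values by series. Per the study's methods, the killing of the mice was spread over 3 days with a cage of every group on each, and whether the series are those days is not stated. Within the series the differences of mean log2 CPM were 1.44, 1.54 and -1.11 in STF and 1.26, 0.70 and 1.47 in LTF.

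Ppard, the broadly expressed PPAR, went the other way at similar depth. In STF its RFD libraries ran from 0 to 18.7 CPM (median 6.98) and its HFD libraries from 0.78 to 11.7 CPM (median 3.85), with 10 of 11 HFD libraries below the RFD median and full overlap of the ranges. In LTF the RFD libraries ran from 1.6 to 58.4 CPM (median 4.99) and the HFD libraries from 1.13 to 9.54 CPM (median 3.26). The value of 58.4 CPM belongs to LTF RFD mouse 3, one of the libraries that stand apart, and the next RFD library had 8.02 CPM. The log2 change was -1.05 in STF (SE 0.51, adjusted p = 0.273) and -1.21 in LTF (SE 0.54, adjusted p = 0.445). Without that mouse the LTF value was -0.24, and without all libraries that stand apart it was -0.19. Within the 3 series the differences were -1.48, 0.93 and -1.36 in STF and -1.80, 0.54 and -0.42 in LTF.

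Pparg, known as the fat storage receptor and here the most abundant PPAR, had the smallest adjusted p of the 10 genes in STF. Its RFD libraries ran from 8.84 to 115 CPM (median 44.4) and its HFD libraries from 2.23 to 39.7 CPM (median 23.2). All 11 HFD libraries lay below the RFD median and 3 below every RFD library, yet the groups overlapped, since 3 RFD libraries were themselves under 16 CPM. The log2 change was -1.11 (SE 0.39, 95% confidence interval -1.92 to -0.31, unadjusted p = 0.00842, adjusted p = 0.142). In LTF the RFD libraries ran from 0 to 79.2 CPM (median 50.6) and the HFD libraries from 7.91 to 67 CPM (median 35.4), and the log2 change was -0.37 (SE 0.39, adjusted p = 0.804). The RFD library at 0 was again mouse 3.

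Pparg was not called in the main STF fit, at a log2 change of -1.11. Its adjusted p fell under the threshold in other fits with similar log2 changes. These were -1.24 without RFD mouse 20 (adjusted p = 0.0452) and -1.14 without HFD mouse 64 (adjusted p = 0.0774). They were -1.22 without the mice numbered in multiples of 10 (adjusted p = 0.0553) and -1.18 with the enterocyte marker level as a covariate (adjusted p = 0.071). Calls over all genes tested also rose from 432 in each of these fits, to 2006 without HFD mouse 64. With the difference of tuft and enterocyte marker levels as a covariate the log2 change of Pparg was -0.55 (adjusted p = 0.48). Without the libraries that stand apart it was -0.92 (adjusted p = 0.223). Within the 3 series of mouse numbers the STF differences were -1.35, -0.37 and -1.02, and those of LTF 0.75, -0.55 and -0.52. With the Paneth marker level as a covariate the STF value was -0.70 (adjusted p = 0.644).

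Rxra, the partner of the PPARs, LXR and PXR, had the lowest median TPM of the 10 genes in both STF groups. Its RFD libraries ran from 0 to 22.7 CPM (median 5.16) and its HFD libraries from 3.69 to 16.7 CPM (median 9.57) in STF, and from 0 to 18.5 CPM (median 9.19) and 0.627 to 23.7 CPM (median 10.9) in LTF. In STF 10 of 11 HFD libraries lay above the RFD median, with none above the highest RFD library. The log2 changes were 0.65 (SE 0.55, adjusted p = 0.561) and 0.22 (SE 0.46, adjusted p = 0.915). The STF value ran from 0.50 to 1.10 when single libraries were left out, and the series gave 0.70, 1.58 and 1.37 in STF and 0.45, 0.08 and -0.02 in LTF.

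Nr1h3, which senses oxysterols, had 12.7 to 55.4 CPM on RFD (median 40.5) and 26.7 to 82.2 CPM on HFD (median 42.3) in STF. In LTF it had 0 to 91.6 CPM on RFD (median 44.1) and 47.8 to 82.2 CPM on HFD (median 58.4), so that 12 of 12 HFD libraries lay above the RFD median without leaving the RFD range. The log2 changes were 0.32 (SE 0.25, adjusted p = 0.525) and 0.42 (SE 0.32, adjusted p = 0.698). The SAM-seq style test gave a false discovery rate of 0.0999 in LTF. The difference in LTF was 1.74 among mice 1 to 8, the series of mouse 3, and 0.04 and 0.58 in the other series.

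Nr1i2, the receptor that turns on drug and bile acid clearance, had the log2 change closest to 0 in STF. It had 12.7 to 74.6 CPM on RFD (median 36.2) and 11.7 to 58.1 CPM on HFD (median 44.1) in STF, and 15.3 to 50.1 CPM (median 33.7) and 22.5 to 56.9 CPM (median 37.6) in LTF. The log2 change was -0.04 in STF, with a 95% confidence interval from -0.57 to 0.50, and 0.25 in LTF, with an interval from -0.21 to 0.70. Differences of more than 0.70 in either direction thus lie outside both intervals. The series differences ran from -0.19 to 0.29 in STF and from 0.01 to 0.65 in LTF.

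Hnf4a, the factor that holds the identity of gut and liver epithelium, had 57.4 to 252 CPM on RFD (median 176) and 125 to 237 CPM on HFD (median 164) in STF. In LTF it had 14.4 to 313 CPM on RFD (median 152) and 81.7 to 255 CPM on HFD (median 179.9). No HFD library lay outside the RFD range in either set. The log2 changes were 0.14 (SE 0.21, 95% confidence interval -0.29 to 0.58) and 0.19 (SE 0.26, interval -0.35 to 0.73), with adjusted p of 0.778 and 0.859. The deepest counts of the 10 genes lie behind these values, up to 1256 reads in a library. The series gave 0.13, 0.59 and 0.05 in STF and 1.01, -0.17 and 0.40 in LTF.

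Hnf4g, the intestinal HNF4 paralog, had the smallest p of the 10 genes in LTF and the second smallest in STF, in the same direction. In STF it had 12.7 to 80.3 CPM on RFD (median 53) and 9.36 to 253 CPM on HFD (median 81.3), and 6 of 11 HFD libraries lay above every RFD library while 1 lay below every one. In LTF it had 17 to 156 CPM on RFD (median 75.5) and 37 to 219.9 CPM on HFD (median 131), with 11 of 12 HFD libraries above the RFD median. The log2 change was 0.98 in STF (SE 0.38, interval 0.20 to 1.77, adjusted p = 0.173) and 0.85 in LTF (SE 0.28, interval 0.28 to 1.42, unadjusted p = 0.00458, adjusted p = 0.224).

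The differences of Hnf4g within the 3 number series were 1.34, 1.24 and -1.11 in STF and 0.54, 1.23 and 0.88 in LTF. The negative value came from HFD mice 63 and 64, with 9.36 and 13.5 CPM, beside 81.3 CPM in mouse 62. Without mouse 64 the STF difference was 1.10 with an adjusted p of 0.05, and without mouse 63 it was 1.11 with an adjusted p of 0.0765. In LTF the adjusted p was 0.0866 with the number series as a term, 0.0425 without RFD mouse 1, 0.0968 without HFD mouse 50 and 0.0533 without mice 1 to 8. With the enterocyte marker level as a covariate the STF value was 0.95 with an adjusted p of 0.0397, and the LTF value 0.77 with an adjusted p of 0.187. In each of these fits with an adjusted p of Hnf4g under the threshold, calls over all genes tested also rose. With the number series as a term the STF value was 0.61 (adjusted p = 0.445). With the difference of tuft and enterocyte markers as a covariate, the STF value was 0.20 (adjusted p = 0.839) and the LTF value 0.70 (adjusted p = 0.146).

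The ratio of Hnf4g to Hnf4a within a library, in TPM, had a median of 0.448 in STF on RFD, 0.624 in STF on HFD, 0.441 in LTF on RFD and 0.906 in LTF on HFD. Hnf4g exceeded Hnf4a in 1 of 11, 3 of 11, 1 of 11 and 5 of 12 libraries in that order. The ratio was 15.3 in 1 LTF RFD library, mouse 3, which had 3.68 TPM of Hnf4a. The ratio is a description, and its difference between diets was not tested.

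Ppargc1a, the coactivator that drives mitochondrial biogenesis and is induced by fasting and cold, had 13.5 to 36.1 CPM on RFD (median 21.9) and 0 to 21.4 CPM on HFD (median 17.5) in STF. All 11 HFD libraries lay below the RFD median and 5 below every RFD library. The 3 libraries at 0 were HFD mice 62, 63 and 64, all of 1 number series and 2 of them the low libraries of Hnf4g. Within the series the differences were -0.27, -0.29 and -4.64, and the log2 change of -0.93 (SE 0.58, adjusted p = 0.409) became -0.37 without the last series, -1.55 with the number series as a term and -1.80 with the difference of tuft and enterocyte markers as a covariate (adjusted p = 0.279 and 0.213 for the latter 2). In LTF the gene had 1.8 to 55 CPM on RFD (median 28.3) and 7.41 to 38.1 CPM on HFD (median 14.9), with no library at 0, 10 of 12 HFD libraries below the RFD median, a log2 change of -0.53 (SE 0.35, adjusted p = 0.633) and series differences of 0.02, -1.21 and -0.44.

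Ppargc1b, the second PGC-1 coactivator, had 0 to 29.7 CPM on RFD (median 8.42) and 3.37 to 63.5 CPM on HFD (median 11.9) in STF, and 2.36 to 24.4 CPM (median 7.12) and 5.34 to 19.3 CPM (median 13.9) in LTF. The HFD libraries lay above the RFD median in 9 of 11 and 10 of 12 cases, with overlapping ranges. The log2 changes were 0.66 (SE 0.52, adjusted p = 0.52) and 0.42 (SE 0.35, adjusted p = 0.726). The STF value was 0.15 without HFD mouse 63, which held the 63.5 CPM. The series gave 1.29, -0.01 and 0.57 in STF and 0.47, 0.71 and 0.42 in LTF.

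Without the libraries that stand apart, 0 of the 10 genes were called in either set. The LTF values of Ppard, Rxra, Nr1h3 and Hnf4a were then closer to 0, at -0.19, 0.08, 0.26 and 0.01, and their STF values were -1.06, 0.46, 0.46 and 0.05. Ppara was at 1.04 in STF and 1.02 in LTF, Pparg at -0.92 and -0.46, and Nr1i2 at -0.13 and 0.16. Hnf4g was at 1.07 and 0.83, Ppargc1a at -1.28 and -0.72, and Ppargc1b at 0.85 and 0.29.

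The difference between the sets was tested as the interaction of diet and set over all 45 libraries. It was called for 0 of the 10 genes, beside 0.00713% of all genes tested (1 gene). An unadjusted p under 0.05 was reached by 0 of 10, beside 3.26% of all genes. DESeq2 and limma on log2(TPM + 1) called 0 of 10, but they called 0 genes in all, so their result says nothing about these 10. The largest interaction was that of Pparg, at 0.81 on the log2 scale in LTF over STF (SE 0.58, interval -0.35 to 1.97, p = 0.167, adjusted p = 1). That of Hnf4g was -0.10 (interval -1.07 to 0.87) and that of Ppara 0.05 (interval -1.88 to 1.99). These intervals are wide, and a missed threshold does not show that the sets were alike.

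The genes around these factors were followed in 6 lists, 5 of known targets and 1 of cofactors and partner receptors. The lists were chosen with earlier results of these data known. Their shares of called genes are therefore a description and no independent support. PPAR targets, genes of fatty acid uptake, oxidation and storage, held 10 genes called in STF and 12 in LTF: 10 of 28 tested (35.7%) were higher on HFD in STF and 12 of 28 (42.9%) in LTF, and 0 were lower in either set. Over all genes tested, 1.84% were called higher and 1.24% lower in STF, and 0.435% and 0.292% in LTF. The median log2 change of the list was 0.82 in STF, or 0.67 with 1 gene near 0 reads set to its lower bound, and 1.00 in LTF, and 24 and 27 of 28 were above 0. Called in both sets were 7 genes. Fgf21 and Lpl of the list were not tested for want of reads.

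Acot1, an acyl-CoA thioesterase with close paralogs that may share its reads, rose in STF from 2.18 ± 2.15 CPM to 49.5 ± 28.1 CPM (SD, 11 mice per diet), a log2 change of 4.36 (SE 0.63, adjusted p = 0.0015). In LTF it had 1.51 ± 2.53 CPM (n = 11) and 21.8 ± 16.5 CPM (n = 12), a log2 change of 3.65 (adjusted p = 0.00858). Etfdh, which passes electrons from fatty acid oxidation to the respiratory chain, had a log2 change of 1.22 (SE 0.20, adjusted p = 0.00659) in STF and 0.77 (adjusted p = 0.284) in LTF.

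Cyp4a10, a fatty acid hydroxylase, had at most 6 reads in any RFD library of STF and at most 3 in LTF, where the HFD level exceeded a floor of 3 reads per RFD library by at least 22-fold (adjusted p = 7.15e-06). Me1, which makes NADPH for fat synthesis, exceeded the same floor by at least 15-fold in LTF (adjusted p = 1.02e-06), and its RFD and HFD libraries did not overlap. In STF it had an adjusted p of 0.113. Acadl, which opens the oxidation of long chain fatty acids, rose from 101 ± 20.4 CPM (n = 11) to 178 ± 35.7 CPM (n = 12) in LTF (log2 change 0.82, SE 0.16, adjusted p = 0.0129), and 11 of 12 HFD libraries lay above every RFD library. In STF the log2 change of Acadl was 0.52 (adjusted p = 0.178). These targets were higher on HFD in each number series of their set, as differences of 2.55 to 4.50 for Acot1 in STF and of 0.48 to 1.16 for Acadl in LTF.

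The 3 PPAR targets whose hexamers are shown above, chosen after their values were seen, were each called in LTF. Acadvl, which starts the mitochondrial oxidation of very long chain fatty acids, had log2 changes of 1.10 in STF and 0.91 in LTF (adjusted p = 0.0284 and 0.0529). Cd36, a fatty acid transporter, had 1.66 and 2.02 (adjusted p = 0.133 and 0.0238), and Plin2, which coats lipid droplets, 0.94 and 1.48 (adjusted p = 0.058 and 0.0545). Acadm and Cpt1a, which also hold the hexamer, were called in neither set. Acadm had 0.64 and 0.57 (adjusted p = 0.188 and 0.284), and Cpt1a 0.38 and 0.65 (adjusted p = 0.419 and 0.438).

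The count of PPAR targets moved with the libraries and the test. Leaving out single libraries gave 6 (HFD mouse 6) to 17 (HFD mouse 64) in STF and 9 to 18 (RFD mouse 1) in LTF. limma on log2(TPM + 1) called 3 in STF and 10 in LTF, DESeq2 15 of the 25 and 18 of the 26 it gave an adjusted p, and the SAM-seq style test 19 and 20. In STF it was 7 of 28 without the libraries that stand apart, 4 with the Paneth marker level as a covariate, 8 with the difference of tuft and enterocyte markers as a covariate and 0 without mice 1 to 8, with 22 to 25 of 28 genes above 0 in these fits. In LTF it was 13, 12 and 14 under the same first 3 changes, 15 without mice 1 to 8 and 2 without the other numbers from 21 to 34 of that set. None was called lower in any of these fits.

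**Figure D3:**
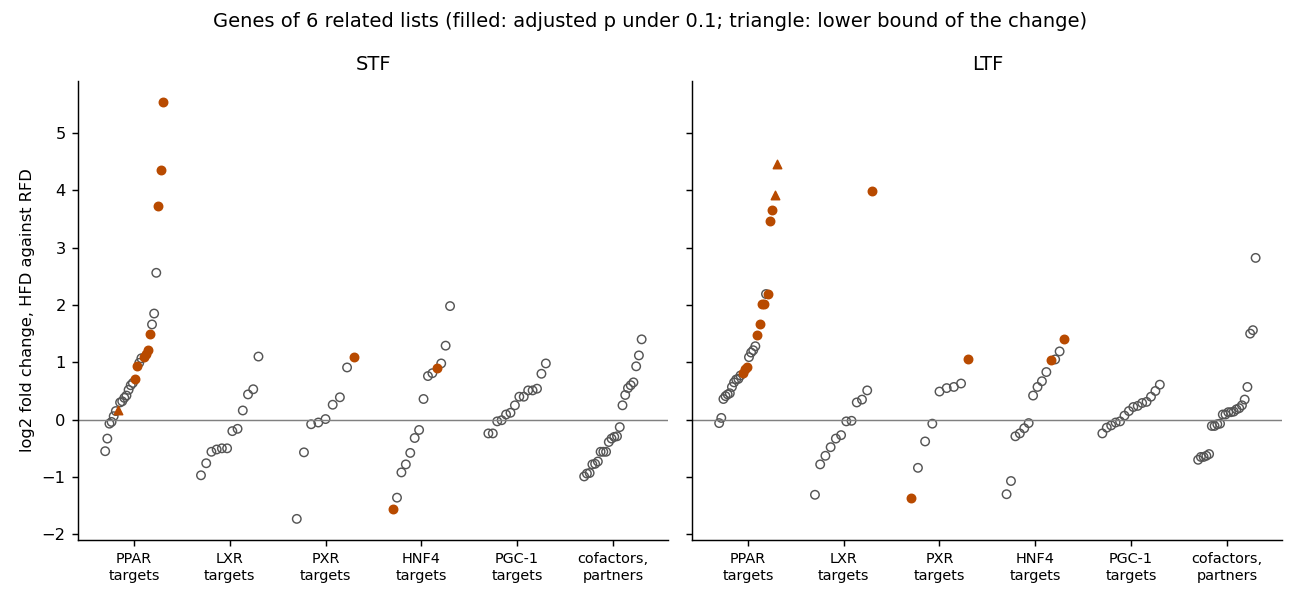
Log2 changes of HFD against RFD (y axis) for each tested gene of 6 lists (x axis) in STF (left) and LTF (right); filled points had an adjusted p under 0.1, and triangles mark genes with at most 3 reads in each RFD library, drawn at their lower bound. The PPAR targets hold 10 filled points in STF and 12 in LTF, all above 0, and the PGC-1 targets and the cofactors hold none. The lists were chosen with earlier results of these data known.

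HNF4 targets, genes of lipoprotein assembly and the brush border, were mixed. In STF, 1 of 14 was higher and 1 lower, and in LTF 2 were higher and 0 lower. This is 14.3% called in each set, beside 3.08% of all genes tested in STF and 0.728% in LTF. Apoc3, an apolipoprotein that slows lipid clearance, fell from 116 ± 72.7 to 40.1 ± 15 CPM in STF (log2 change -1.56, SE 0.30, adjusted p = 0.0188), and 11 of 11 HFD libraries lay below the RFD median. Cdx2, the intestinal identity factor, rose from 62.2 ± 23.1 to 116 ± 31.6 CPM in the same set (log2 change 0.90, SE 0.21, adjusted p = 0.053). In LTF, Mttp, which loads fat onto lipoproteins, rose from 472 ± 177 to 968 ± 449 CPM (log2 change 1.04, SE 0.26, adjusted p = 0.0761). Apoc2, whose promoter holds the spaced pair shown above, rose from 226 ± 149 to 596 ± 395 CPM (log2 change 1.40, SE 0.35, adjusted p = 0.0718). In the set where they were not called, these genes changed in the same direction. Apoc3 had -1.07 and Cdx2 0.67 in LTF (adjusted p = 0.176 and 0.552). Mttp had 0.98 and Apoc2 0.81 in STF (adjusted p = 0.155 and 0.164). Fabp1, the other holder of the pair, had a log2 change of -0.18 in STF and -0.06 in LTF (adjusted p of 0.813 and 0.956).

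Of 12 LXR targets, 0 were called in STF and 1 in LTF, the fatty acid desaturase Scd1, which rose from 2.35 ± 2.93 to 35.5 ± 44.6 CPM (log2 change 3.98, SE 0.87, adjusted p = 0.0301). In STF the log2 change of Scd1 was 1.1 (adjusted p = 0.678). The median log2 change of the list was -0.35 in STF and -0.15 in LTF. Of 9 PXR targets, the bilirubin conjugating enzyme Ugt1a1 was higher on HFD in both sets, with log2 changes of 1.10 (SE 0.31, adjusted p = 0.0806) and 1.05 (SE 0.26, adjusted p = 0.0731). Cyp3a11, a drug oxidizing enzyme with close paralogs, was lower in LTF, from 197 ± 105 to 76.2 ± 41.2 CPM (log2 change -1.36, SE 0.32, adjusted p = 0.0482). In STF its log2 change was -1.73 (adjusted p = 0.134). Ugt1a1 shares exons with the other Ugt1a genes, so its reads are uncertain. Called were 8.33% of the LXR list in LTF, and 11.1% and 22.2% of the PXR list in STF and LTF. Over all genes tested, 3.08% were called in STF and 0.728% in LTF. On such short lists 1 gene makes a large share.

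None of 14 PGC-1 targets, nuclear genes of mitochondrial proteins and of their regulators, was called by edgeR in either set, with medians of 0.33 and 0.19. At an unadjusted p under 0.05 there were 5 higher and 0 lower in STF and 0 in LTF, beside 18.2% and 10.2% of all genes in either direction. None of 22 cofactors and partner receptors was called either, with medians of -0.31 and 0.11, and at an unadjusted p under 0.05 there were 2 higher and 3 lower in STF and 4 higher and 2 lower in LTF, to be read against the same shares of all genes. The partner Rxrg was not tested for want of reads.

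Across the libraries of a group, Pparg and Hnf4g varied with the markers of different cell types. Pparg went with the tuft markers: the Spearman correlation of its log2 CPM with their summed level averaged 0.78 over the 4 groups (0.72 to 0.86 by group), and Pearson's r averaged 0.84, over 45 libraries. Hnf4g went with the enterocyte markers (mean rho 0.73, 0.44 to 0.89 by group, mean r 0.75) and against the tuft markers (mean rho -0.61, mean r -0.41). Permuting libraries within groups 100000 times gave p = 1e-05 for rho and for r in both leading relations, the smallest value it can give, and 0.00025 after Benjamini-Hochberg adjustment over the 50 relations computed (10 genes with 5 marker lists). For Hnf4g and tuft markers p was 3e-05 for rho and 0.0087 for r, adjusted 0.0005 and 0.048. The 2 values of a library share its total and its scaling.

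Taken over deviations from the group means, r was 0.75 for Pparg and tuft markers, 0.70 without the 2 libraries farthest from the median of the markers, and 0.59 for deviations within group and number series. For Hnf4g and enterocyte markers the same values were 0.70, 0.67 and 0.64. For Hnf4g and tuft markers r within group and number series was -0.30. Hnf4a had its highest correlation with stem cell markers (mean rho 0.45, adjusted p = 0.033, mean r 0.57, adjusted p = 0.0023, and 0.69 within group and series). It also went with the Paneth markers (mean rho 0.41, adjusted p = 0.046, and r 0.45 within group and series). Ppargc1b went with the stem cell markers as well (mean rho 0.46, adjusted p = 0.029, and r 0.35 within group and series). Ppara went against the tuft markers (mean rho -0.43, adjusted p = 0.046, mean r -0.43, adjusted p = 0.047), but r was -0.06 within group and series. In all, 7 of the 50 relations had an adjusted p of rho under 0.05.

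**Figure D4:**
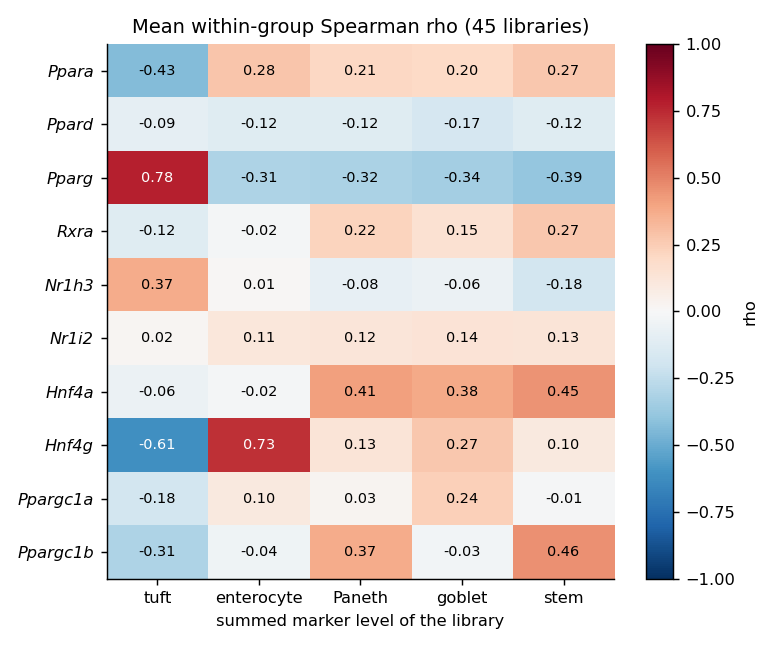
Mean of the 4 within-group Spearman correlations (colour and number) between the log2 CPM of each of the 10 genes (rows) and the summed level of 5 marker lists (columns) over 45 libraries. Pparg with tuft markers, at 0.78, and Hnf4g with enterocyte markers, at 0.73, are the highest values, and Hnf4g with tuft markers, at -0.61, is the lowest.

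The marker levels that these genes follow also differed in part between the diets. The median summed tuft marker level was 17664 CPM on RFD and 7646 CPM on HFD in STF, and 23129 and 17455 CPM in LTF, and 1 of 18 markers in STF and 0 of 18 in LTF had a log2 change above 0, though none was called. The median summed enterocyte marker level was 5733 CPM on RFD and 4551 CPM on HFD in STF, and 10059 and 8915 CPM in LTF. Of these 10 markers, 3 in STF and 6 in LTF had a log2 change above 0 (medians -0.39 and 0.11), and 1 and 2 were called. None of the 7 Paneth markers was called, but all 7 had log2 changes above 0 in both sets. All 6 stem cell markers, the list with which Hnf4a varied most, had log2 changes above 0 in both sets, with summed medians of 363 CPM on RFD and 1369 CPM on HFD in STF and 162 and 276 CPM in LTF, and 2 were called in STF. Goblet markers had 2283 and 3034 CPM in STF and 1541 and 2680 CPM in LTF, with 6 and 7 of 7 above 0 and 1 called in STF. Enteroendocrine markers had 425 and 350.4 CPM in STF, with 5 of 8 above 0, and 474 and 281 CPM in LTF, with 1 of 8 above 0 and 2 called. The summed medians of M cell markers ran from 218 to 567 CPM, with 1 called in STF. T cell, eosinophil, macrophage and adipocyte markers had medians of at most 28.6 CPM summed in any group, and the highest library had 953 CPM of macrophage markers in LTF on HFD, where 1 of these was called. Only tested markers enter these sums, 2 of 4 for M cells, 5 of 8 for T cells and 4 of 4 for macrophages. For eosinophils and for adipocytes only 1 of 4 was tested, so a low sum does not show that such cells were absent. The part of cell type content in the diet differences of Pparg and Hnf4g was not tested beyond the covariates above.

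**Figure D5:**
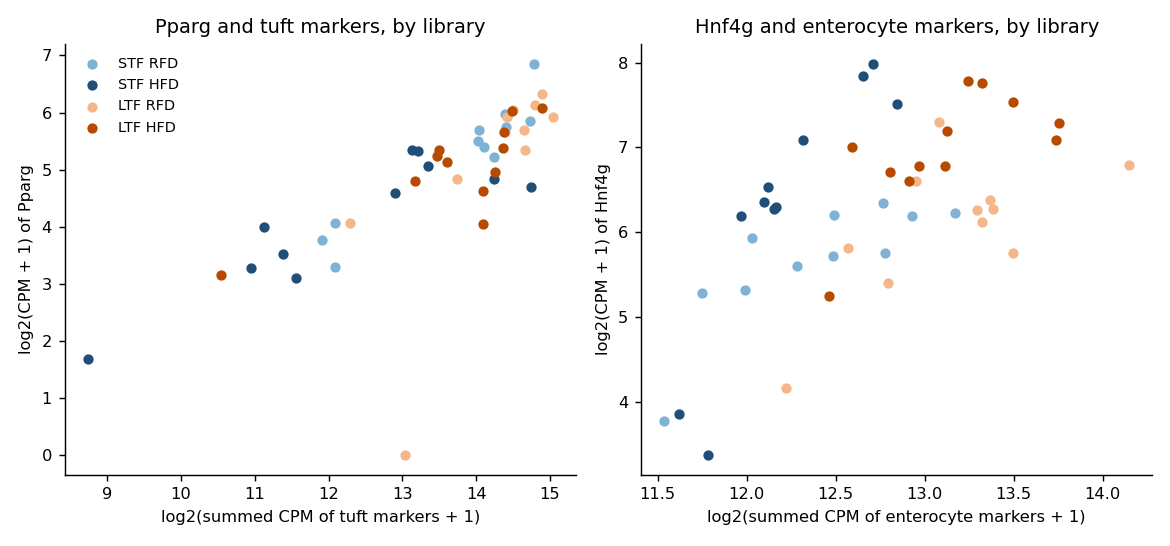
Left, log2(CPM + 1) of Pparg against log2 of the summed CPM of 18 tuft markers; right, log2(CPM + 1) of Hnf4g against log2 of the summed CPM of 10 enterocyte markers; each point is 1 of 45 libraries, coloured by group. Pparg is higher where the tuft markers are higher (mean within-group rho 0.78), apart from LTF RFD mouse 3 at 0 CPM, and Hnf4g is higher where the enterocyte markers are higher (0.73).

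The genes most like each of the 10 were sought among 8882 genes with a median of at least 10 reads, by the same mean of within-group correlations, as a description over 45 libraries. Hnf4g was matched most closely, by Ces2e (0.88), Aoc1 (0.87) and Dgat1 (0.86). Pparg was next, with Oas1a (0.83), Srpk2 (0.81) and Rac2 (0.81), and then Hnf4a, with Rpl9 (0.77), Pabpc1 (0.73) and Noc4l (0.69). The best matches of the rest were weaker: Scamp3, Mib2 and Itsn2 for Nr1h3 (0.67 to 0.63), Daglb, Usp53 and Smc2 for Ppara (0.66 to 0.61), Pign, Pdk3 and N4bp2l1 for Ppargc1a (0.64 to 0.60), and Wdr33, Gaa and C2cd5 for Rxra (0.63 to 0.57). Nr1i2 (Zfp472, Ints12 and Rmi1, 0.59 to 0.57), Ppargc1b (Utp4, Ears2 and Pdcd11, 0.59 to 0.57) and Ppard (Tubgcp5, Nfkb1 and H2-DMb1, 0.58 to 0.45) had the weakest. As the highest of 8882 values each, these lie above 0 by choice.

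In GENCODE M21 (GRCm38) the PPAR genes lie on chromosome 15 from 85734983 to 85802819 (Ppara), chromosome 17 from 28232700 to 28301474 (Ppard) and chromosome 6 from 115360951 to 115490399 (Pparg). Chromosome 2 holds 3 of the genes, Rxra from 27676440 to 27762957, Nr1h3 from 91184061 to 91202834 and Hnf4a from 163506808 to 163572910. Nr1i2 lies on chromosome 16 from 38248323 to 38294824, Hnf4g on chromosome 3 from 3508030 to 3658052 and Ppargc1a on chromosome 5 from 51454250 to 51567726. Nr1h3, Nr1i2 and both PGC-1 genes are on the minus strand and the rest on the plus strand. The libraries do not keep the strand. Exons of 9 of the 10 genes overlapped those of no other gene, and Nr1h3 shared 1.35% of its exon bases with Gm13783 on the same strand.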

How the data were processed

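Small intestinal tuft cells sorted from single mice were profiled by Smart-seq2 with Nextera XT libraries, which do not mark the strand. Per the labels, the submitters' processing notes name cutadapt 1.15, STAR 2.6.0, RSEM and GRCm38. The authors deposited RSEM expected counts per gene, in which reads that match several genes are divided among them, and TPM, which the authors scaled per transcript length and library. Of the counts above 0, 8.79% were not whole, and counts were rounded before testing. For each kind of table, 24 columns that matched no sample label were not used. Deposited FPKM values were not used.

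Genes with more than 5 reads in 6 or more libraries were tested (14020), with symbols from GENCODE M21. The diets were compared within a set by edgeR 4.0.16 (quasi-likelihood test, TMM, R 4.3.3), with Benjamini-Hochberg adjustment over all genes tested and a threshold of 0.1. Alternatives were DESeq2 1.42.0, limma 3.58.1 on log2 TPM with pseudocounts of 1 and 0.1, a rank test after SAM-seq (20 resamples, 100 permutations), other scaling and filters, marker covariates, and left-out libraries. The fits were tested on simulated data. The study's weighting of counts by cell type proportions was not repeated. The 10 genes, the lists and the markers were chosen with earlier results of these data known. Named were all 10 genes, up to 4 called genes of each list and set with the smallest p, and the 3 genes most like each of the 10; 1 such gene is not reported here.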

Additional observations from a re-analysis of the deposited data

How the results depend on the processing

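For the 10 genes in STF, 0 were called in the main fit, beside 432 of all genes. DESeq2 called 2, beside 1536 of all genes. There were 2 with the enterocyte covariate, 1 without the multiples of 10 and 1 without the numbers from 21 to 64. Leaving out single libraries gave 0 to 2, above 0 without RFD mouse 20 and HFD mice 63 and 64. Calls over all genes also rose in each of these fits with a call, except without the numbers from 21 to 64, where they fell. In LTF, also 0 and beside 102 of all genes, there were 1 with the number series as a term and 1 without mice 1 to 8. Both fits also had more calls over all genes than the main fit. The SAM-seq style test called 2, beside 715 of all genes. Without single libraries there were 0 to 2, above 0 without RFD mouse 1, beside 650 of all genes, and without HFD mouse 50. The genes called were always among Pparg, Hnf4g, Ppara and Nr1h3. The interaction stayed at 0 under its 12 alternatives. The 13 list genes called in STF became 32 with DESeq2, 32 with the SAM-seq style test, 34 with the enterocyte covariate, 3 with limma at either pseudocount, 4 with the Paneth covariate, 8 without the libraries that stand apart and 0 without mice 1 to 8. Leaving out single libraries gave 7 to 36, moving the count most for RFD mouse 20 and HFD mice 6, 64, 70 and 80. The 17 list genes in LTF became 30 with DESeq2, 34 with the SAM-seq style test, 10 and 6 with limma at pseudocounts of 1 and 0.1, 7 without the multiples of 10 and 2 without the numbers from 21 to 34. Single libraries gave 10 to 34, moving it most for RFD mice 1, 2, 10, 21, 23 and 40. Over all genes tested, the 432 calls of STF ran from 0 to 1889 and the 102 of LTF from 5 to 715 over these alternatives, and from 48 (without HFD mouse 6) to 2006 (without HFD mouse 64) and from 63 (without RFD mouse 10) to 650 (without RFD mouse 1) when single libraries were left out. The causes were not tested, and the left-out fits also held fewer libraries. The fits with Paneth content and without the libraries that stand apart were chosen after the data were seen.

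No paired analysis was possible within a set because its diets share no mouse number. In the interaction fit with a replicate block on the mouse number, 0 of the 10 genes were called. Of 16 same-numbered pairs across sets, 2 had correlated deviations over 0.1 (range -0.39 to 0.38), and 1 correlated best with its own number, so the numbers were not treated as pairs. Low counts limit Ppara, Ppard, Rxra and Ppargc1b most, with medians under 5 TPM in each group. Of the 10 genes, all but Hnf4a had 5 or fewer reads in some libraries, and Ppargc1a had 0 reads in 3 of 11 HFD libraries of STF. Replicates are single mice. Per the study's methods the mice shared cages, each cage within a group. The labels do not name the cage, and the tests had no term for it.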
